A study of Homo sapiens with 16 samples.

Results

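The transcriptional targets of the tumour suppressor p53, represented by 30 genes, were followed in cytoplasmic and nuclear RNA of hepatoma cells whose PANAD (C7orf25) was targeted by siRNA. The 30 genes were found by symbol through their Ensembl identifiers, and all of them matched 1 row in each count table, out of 67938 identifiers per table. The human lines were HepG2 and SNU-449, both labelled as hepatocellular carcinoma cells. In each line, cells were transfected for 48 h with a mixture of the siRNAs siPANAD-1 and siPANAD-2 (called siPANAD here) or with the negative control NC, and then split into a cytoplasmic and a nuclear RNA fraction. Each of the 8 groups formed by line, fraction and siRNA had 2 libraries, called biological duplicates in the series' design text, so 16 libraries were compared. The 2 siRNAs were pooled, so their separate effects are not known, and the series' title links PANAD with the mRNA export receptor NXF1, with nuclear export of CDK6 mRNA and with entry into S phase.

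The protein p53 is a transcription factor that is kept low by the ubiquitin ligase MDM2 and accumulates when DNA damage, nucleolar stress or other insults disturb that binding. It then binds response elements made of a pair of decameric half-sites and activates genes for DNA repair, cell-cycle arrest, redox and energy metabolism, autophagy and cell death, among them its own inhibitors MDM2 and PPM1D. Liver cells use the same targets after genotoxic and metabolic stress. HepG2 is generally described as a hepatoblastoma-derived line and SNU-449 as a poorly differentiated hepatoma line.

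Promoter windows of 300 bases (250 before and 50 after an annotated start) were taken from RefSeq on GRCh38.p14 to show the kind of element these genes are known for. Such windows were given for 25 of the 30 genes, 36 windows in all. The p53 half-site consensus was searched exactly on either strand (it is palindromic). A full site was counted as a pair of half-sites at most 1 base apart with at most 2 mismatches in all. No mismatch was allowed at the fixed C and G in the core of each half-site. An exact half-site occurred in 5 of the 36 windows (13.9%), against 6.63% of all 35116 promoter windows of that length. A full site occurred in 4 of the 36 windows (11.1%), against 0.533% of all windows. These 4 windows belong to 3 genes, because a pair of overlapping MDM2 windows hold the same site. The 4 windows below each held a match, marked in capitals, and were picked with the responses to siPANAD known. DDB2 and FDXR rose in all 4 comparisons of siPANAD with NC described below, MDM2 rose in 1 and fell in 1, and AEN passed in none. Windows of SESN1 and PLK2 also held an exact half-site and are not printed. In DDB2 the capitals are a pair of exact half-sites that start at bases 6 and 17 counted from a downstream annotated start. The DDB2 window further upstream held no match. In MDM2 (the second promoter) and AEN the capitals are a full site with 2 mismatches, and in FDXR 1 exact half-site.
DDB2 chr11:47214724-47215023, plus strand: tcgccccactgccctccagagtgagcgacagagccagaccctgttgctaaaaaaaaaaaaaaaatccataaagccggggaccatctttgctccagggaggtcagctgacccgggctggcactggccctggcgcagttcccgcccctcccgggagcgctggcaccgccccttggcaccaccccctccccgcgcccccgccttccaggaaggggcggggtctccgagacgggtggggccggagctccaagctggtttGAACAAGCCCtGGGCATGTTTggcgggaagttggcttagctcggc
FDXR chr17:74872945-74873244, minus strand: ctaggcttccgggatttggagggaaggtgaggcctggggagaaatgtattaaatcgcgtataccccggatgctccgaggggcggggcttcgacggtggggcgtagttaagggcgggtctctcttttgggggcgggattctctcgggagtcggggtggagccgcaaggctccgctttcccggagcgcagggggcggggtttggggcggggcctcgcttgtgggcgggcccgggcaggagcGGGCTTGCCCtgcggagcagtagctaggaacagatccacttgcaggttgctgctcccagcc
MDM2 chr12:68808767-68809066, plus strand: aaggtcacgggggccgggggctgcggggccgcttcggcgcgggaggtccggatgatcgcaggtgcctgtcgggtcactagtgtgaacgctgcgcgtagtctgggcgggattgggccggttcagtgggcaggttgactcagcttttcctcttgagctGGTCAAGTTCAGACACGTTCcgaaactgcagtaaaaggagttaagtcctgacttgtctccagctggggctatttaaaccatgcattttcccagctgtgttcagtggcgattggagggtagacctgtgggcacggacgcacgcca
AEN chr15:88621090-88621389, plus strand: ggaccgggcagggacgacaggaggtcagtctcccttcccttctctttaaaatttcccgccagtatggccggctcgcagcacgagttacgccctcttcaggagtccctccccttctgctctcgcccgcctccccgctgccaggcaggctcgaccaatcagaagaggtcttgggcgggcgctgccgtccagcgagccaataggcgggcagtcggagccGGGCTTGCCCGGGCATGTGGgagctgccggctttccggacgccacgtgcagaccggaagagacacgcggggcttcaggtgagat
A match is a description of these letters and not a measured binding site, and the windows of genes without one say nothing about p53 binding elsewhere.

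The libraries held 16238235 to 30321908 counts, with HepG2 cytoplasm NC replicate 2 the deepest and the next at 19498081. The targeted gene, C7orf25, had 0 to 4 counts in the HepG2 libraries and 0 to 7 in the SNU-449 libraries, with siPANAD and NC alike, so its depletion could not be checked at this depth. The nuclear RNA MALAT1 lay between 370.2 and 634 CPM (counts scaled to 1e6 per library) in nuclear libraries and between 2.21 and 5.84 CPM in cytoplasmic ones, and GAPDH mRNA between 884 and 1365 CPM in nuclear and between 4045 and 5934 CPM in cytoplasmic libraries. The hepatocyte list of 12 genes summed to 30154 to 40029 CPM in HepG2, where all 12 had counts, against 41.5 to 333 CPM in SNU-449, where ALB reached at most 0.351 CPM and APOB stayed at 0. Mesenchymal VIM lay between 1080 and 1750 CPM in SNU-449 and at most at 0.243 CPM in HepG2. The mesenchymal list of 12 genes was mixed. By the test described below, 7 of the 11 tested were higher and 2 lower in the SNU-449 cytoplasm with NC. Of all genes, 34.3% and 36.9% were. The list sum there was larger in HepG2 (3117 and 2749 CPM) than in SNU-449 (2075 and 1976 CPM). FN1 had a median of 3305 CPM in HepG2 and 37.5 CPM in SNU-449. Levels of genes below are TMM-normalised CPM of the line's own fit unless stated otherwise, and fold changes are log2 values from edgeR's quasi-likelihood test. Their standard error (SE) was derived as the absolute log2 fold change divided by the square root of the test's F statistic. A gene was called higher or lower when its Benjamini-Hochberg adjusted p over all tested genes was under 0.05. The p-values rest on the spread between 2 libraries per group, pooled over a line. The series is bulk RNA, so fewer expressing cells and less RNA per cell cannot be told apart.

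In HepG2, most of the 30 genes rose with siPANAD in both fractions, whereas in SNU-449 as many rose as fell. The 30 genes were chosen with earlier results of these data known, so their counts beside those of all genes are descriptive. A further list of 42 p53 targets, chosen under the same condition and described below, had 15 higher and 12 lower genes in the HepG2 cytoplasm. In the HepG2 cytoplasm, 18 of 30 rose and 3 fell, against 23.7% of all 17499 genes called higher and 24.2% called lower. Their median log2 fold change was 0.75, beside 0.00 for all genes. In the HepG2 nucleus, 19 of 30 rose and 3 fell, against 22.0% and 23.6% of all genes, with a median of 0.64 beside -0.03. Of the 27 genes with enough counts for a test in SNU-449, 8 rose and 8 fell in the cytoplasm, against 19.6% of 17895 genes called higher and 20.1% called lower. In the nucleus 8 rose and 8 fell, against 22.1% and 23.9% of all genes. The medians in SNU-449 were -0.07 in the cytoplasm and 0.02 in the nucleus, beside 0.04 and -0.01 for all genes. The missing 3 were SPATA18, with 0 counts in all 8 SNU-449 libraries, EDA2R with 0 to 2 counts and TRIM22 with 0 to 16. In all 4 comparisons 6 genes rose (DDB2, TP53INP1, ZMAT3, FDXR, CYFIP2 and PIDD1), PERP fell in all 4, and 17 rose in both HepG2 fractions. Shares of all genes with such combined calls are not given here, so these counts only describe the 30 genes. GADD45A, AEN and DRAM1 passed in none of the 4.

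Genes of the hepatocyte list and of lists for other cell types were called with siPANAD too. Summed levels of lists in this paragraph are CPM of the library total, without TMM scaling. Of all genes, 23.7% rose and 24.2% fell in the HepG2 cytoplasm, and 22.0% and 23.6% in the HepG2 nucleus. The SNU-449 shares were 19.6% and 20.1% in the cytoplasm, and 22.1% and 23.9% in the nucleus. Of the 12 hepatocyte genes, 2 rose and 6 fell in the HepG2 cytoplasm and 1 rose and 8 fell in the HepG2 nucleus. Their summed level was 40029 and 38251 CPM with siPANAD, against 33253 and 30154 CPM with NC in the cytoplasm, and 30735 and 31329.9 CPM with siPANAD, against 38280 and 36207 CPM with NC in the nucleus. The mesenchymal list of 12 genes, led by FN1, summed to 1299 and 1303 CPM with siPANAD, against 3117 and 2749 CPM with NC in the HepG2 cytoplasm, where VIM was at or near 0. Of the 7 tested, 1 rose and 5 fell in each HepG2 fraction. In SNU-449, 2 of 11 rose and 7 fell in the cytoplasm and 1 rose and 6 fell in the nucleus, with sums of 1885 and 2227 CPM with siPANAD, against 2075 and 1976 CPM with NC in the cytoplasm. The immune and blood list of 12 genes summed to 317 and 295 CPM with siPANAD, against 362 and 509 CPM with NC in the HepG2 cytoplasm, mostly from LYZ, while PTPRC and CD3E were at 0 in most libraries, and 4 of the 6 tested rose and 1 fell in each HepG2 fraction. Of 3 endothelial and stellate genes tested in HepG2, ACTA2 and VWF rose and PECAM1 fell in both fractions, and the list of 8 summed to 43.2 and 39.7 CPM with siPANAD, against 26.8 and 25.6 CPM with NC in the cytoplasm. Of the 6 epithelial genes, 1 rose and 2 fell in the HepG2 cytoplasm and 1 rose and 3 fell in the nucleus. Of 4 tested in SNU-449, 0 rose and 1 fell in the cytoplasm, and 1 rose and 1 fell in the nucleus. Some risers were low in the HepG2 cytoplasm, such as CD14 with TMM-normalised means of 2.14 CPM with siPANAD and 0.567 CPM with NC. AIF1 had 3.33 and 0.729 CPM and VWF 3.81 and 2.19 CPM. The part of these lists in the results on p53 targets was not tested.

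**Figure D1:**
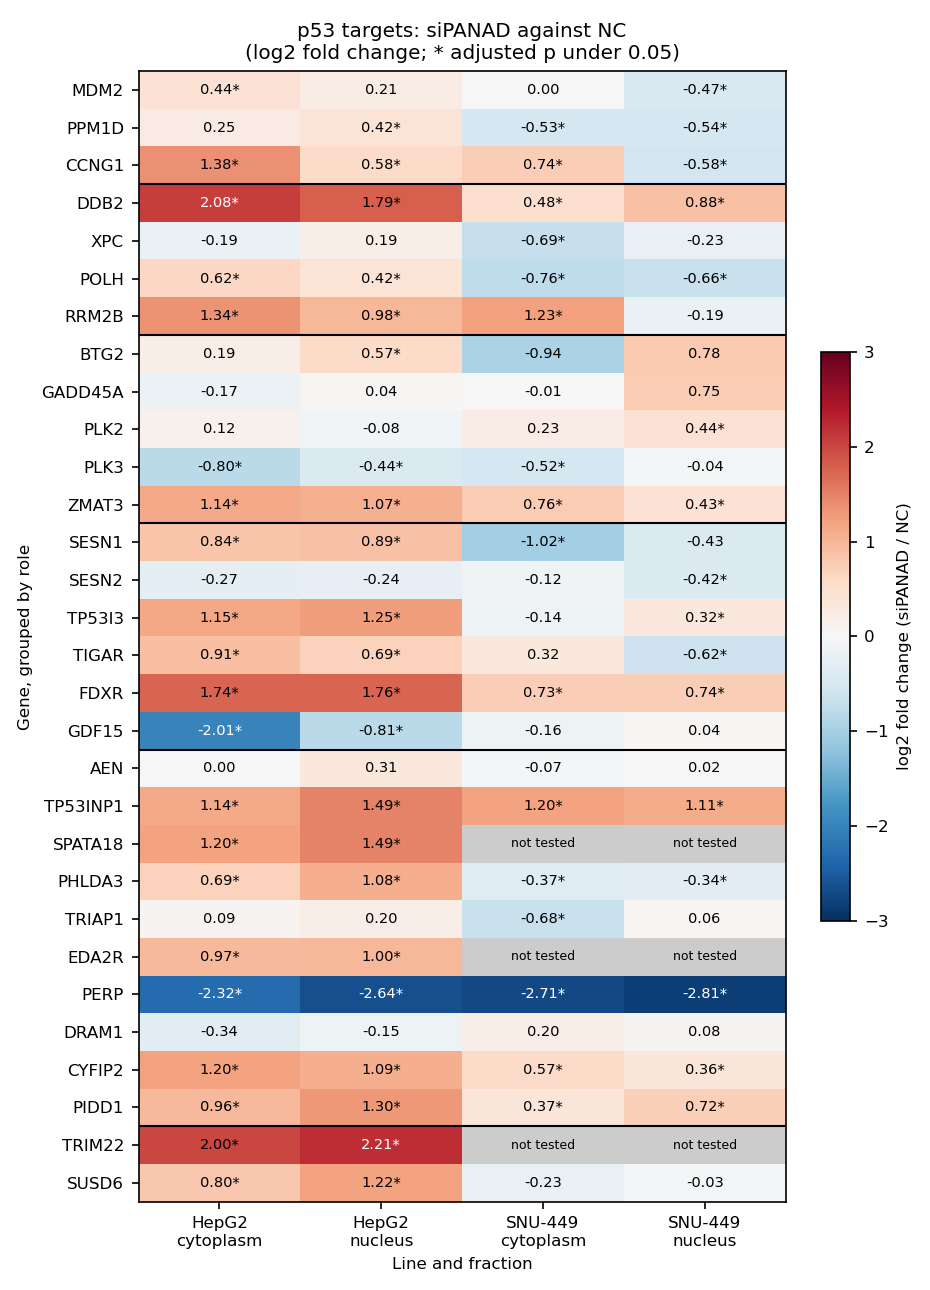
Log2 fold changes of siPANAD over NC for the 30 p53 targets (rows, grouped by role) in the 2 fractions of each line (columns), with an asterisk where the adjusted p was under 0.05 and grey where the gene was not tested. The HepG2 columns are mostly red, with 18 and 19 genes higher, the SNU-449 columns hold 8 higher and 8 lower genes each, and the PERP row is blue throughout.

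The feedback genes act back on p53 itself, and none of the 3 gave the same result in all comparisons. MDM2 encodes the ubiquitin ligase that marks p53 for degradation. In the HepG2 cytoplasm it stood at 111 and 104 CPM with siPANAD, against 71.8 and 86.5 CPM with NC. In the nucleus it stood at 159 and 137 CPM with siPANAD, against 131 and 125 CPM with NC. The cytoplasmic libraries of the 2 groups did not overlap and MDM2 rose there by 1.36-fold (log2 0.44 ± 0.13 SE, adjusted p = 0.00754). That call was lost without siPANAD replicate 1 (log2 0.35, adjusted p = 0.123) or without NC replicate 1 (log2 0.31, adjusted p = 0.074). In the nucleus the difference did not pass (log2 0.21 ± 0.13, adjusted p = 0.188). In SNU-449, MDM2 had 61.5 and 81.6 CPM with siPANAD, against 75.4 and 67.9 CPM with NC in the cytoplasm, where the groups overlapped (log2 0.00, adjusted p = 1.0). In the SNU-449 nucleus it fell, with 32.7 and 32.8 CPM with siPANAD, against 51.4 and 39.1 CPM with NC (log2 -0.47 ± 0.13, adjusted p = 0.00507), though not without NC replicate 1 (log2 -0.26, adjusted p = 0.112).

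PPM1D, the phosphatase WIP1 that switches off p53 and its kinases, moved in opposite directions in the nuclei of the lines. It had 16.7 and 18.3 CPM with siPANAD, against 14.5 and 11.7 CPM with NC in the HepG2 nucleus (log2 0.42 ± 0.14, adjusted p = 0.0198). It had 8.49 and 10.2 CPM with siPANAD, against 13.8 and 13.3 CPM with NC in the SNU-449 nucleus (log2 -0.54 ± 0.14, adjusted p = 0.00175). The HepG2 call was lost without NC replicate 2 (adjusted p = 0.224) or siPANAD replicate 2 (adjusted p = 0.164) and with DESeq2 (adjusted p = 0.0558), and the SNU-449 call without siPANAD replicate 1 (adjusted p = 0.0699). In the cytoplasm PPM1D fell in SNU-449 (log2 -0.53 ± 0.15, adjusted p = 0.00441), a call lost without siPANAD replicate 2 (adjusted p = 0.0603), and did not pass in HepG2 (log2 0.25, adjusted p = 0.173).

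CCNG1 encodes cyclin G1, which recruits protein phosphatase 2A to MDM2. Its cytoplasmic level rose in both lines, to 581 and 599 CPM with siPANAD, against 228 and 226 CPM with NC in HepG2. In SNU-449 it rose to 988 and 1132 CPM with siPANAD, against 679.6 and 592 CPM with NC. These were rises of 2.604-fold (log2 1.38 ± 0.13, adjusted p = 3.3e-09) and 1.67-fold (log2 0.74 ± 0.10, adjusted p = 1.7e-07). In the HepG2 nucleus it also rose, with 65.9 and 57.3 CPM with siPANAD, against 44.6 and 37.9 CPM with NC (log2 0.58 ± 0.13, adjusted p = 0.00097). In the SNU-449 nucleus it fell, with 62.5 and 57.8 CPM with siPANAD, against 98.2 and 82.2 CPM with NC (log2 -0.58 ± 0.10, adjusted p = 1.9e-05). In each of the 4 comparisons the siPANAD and NC libraries stood apart. CCNG1 was the only one of the 27 called in opposite directions in the 2 fractions of SNU-449, and none was in HepG2.

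Among the genes of DNA repair and nucleotide supply, DDB2 showed one of the largest responses. DDB2 (ENSG00000134574, chr11:47214465-47239240, hg38), the damage-recognition subunit that starts nucleotide excision repair in chromatin, had 186 and 189 CPM with siPANAD, against 46.9 and 41.9 CPM with NC in the HepG2 cytoplasm. The nuclear DDB2 level in that line was 201 and 215 CPM with siPANAD, against 58.7 and 61.4 CPM with NC. It rose 4.23-fold in the cytoplasm (log2 2.08 ± 0.13, adjusted p = 1.7e-12) and 3.46-fold in the nucleus (log2 1.79 ± 0.13, adjusted p = 2.3e-11). In SNU-449 the levels were 73.4 and 70.2 CPM with siPANAD, against 49.03 and 53.8 CPM with NC in the cytoplasm, a 1.395-fold rise (adjusted p = 0.00028). The nuclear DDB2 level in that line was 45.9 and 52.1 CPM with siPANAD, against 26.1 and 27.2 CPM with NC, a 1.84-fold rise (adjusted p = 1.3e-08). The groups did not overlap in any of the 4 comparisons.

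RRM2B, the p53-inducible small subunit of ribonucleotide reductase, rose in both HepG2 fractions and in the SNU-449 cytoplasm. It had 31.9 and 29.9 CPM with siPANAD, against 11.6 and 12.6 CPM with NC in the HepG2 cytoplasm (log2 1.34 ± 0.15, adjusted p = 4.4e-08). It had 13.7 and 11.9 CPM with siPANAD, against 6.09 and 6.86 CPM with NC in the HepG2 nucleus (log2 0.98 ± 0.16, adjusted p = 1.4e-05). In the SNU-449 cytoplasm 6.19 and 7.15 CPM with siPANAD stood above 3.74 and 1.98 CPM with NC (log2 1.23 ± 0.23, adjusted p = 3.9e-05), from only 28 to 173 counts per SNU-449 library. In the SNU-449 nucleus the difference did not pass (log2 -0.19 ± 0.17, adjusted p = 0.376). POLH, the translesion polymerase eta, rose in HepG2 and fell in SNU-449 in both fractions. Its levels were 20.1 and 13.8 CPM with siPANAD, against 10.6 and 11.4 CPM with NC in the HepG2 cytoplasm (log2 0.62 ± 0.17, adjusted p = 0.00318). They were 20.3 and 16.9 CPM with siPANAD, against 31.1 and 31.7 CPM with NC in the SNU-449 cytoplasm (log2 -0.76 ± 0.13, adjusted p = 6.7e-06). In the nucleus they were 27.3 and 27.4 CPM with siPANAD, against 21.4 and 19.5 CPM with NC in HepG2 (log2 0.42 ± 0.15, adjusted p = 0.0238). The SNU-449 nucleus had 13.6 and 13.6 CPM with siPANAD, against 21.7 and 21.3 CPM with NC (log2 -0.66 ± 0.12, adjusted p = 3.1e-05). The HepG2 side of POLH was the less firm one, since its cytoplasmic call was lost without siPANAD replicate 1 (log2 0.28, adjusted p = 0.337) and its nuclear call without any 1 of the 4 nuclear libraries (adjusted p between 0.0553 and 0.151) and with DESeq2 (adjusted p = 0.0672).

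XPC, the partner of DDB2 in damage recognition, was called only in the SNU-449 cytoplasm, where it had 4.64 and 4.07 CPM with siPANAD, against 6.08 and 7.93 CPM with NC (log2 -0.69 ± 0.20, adjusted p = 0.00476). That call was lost without NC replicate 2 (log2 -0.46, adjusted p = 0.143) or siPANAD replicate 2 (adjusted p = 0.0559), and the other 3 comparisons gave log2 values between -0.23 and 0.19. Other genes on the opposite strand cover 30.4% of the exonic bases of XPC, and whether the counting used strand is not given in the sources used here, so its level is uncertain.

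**Figure D2:**
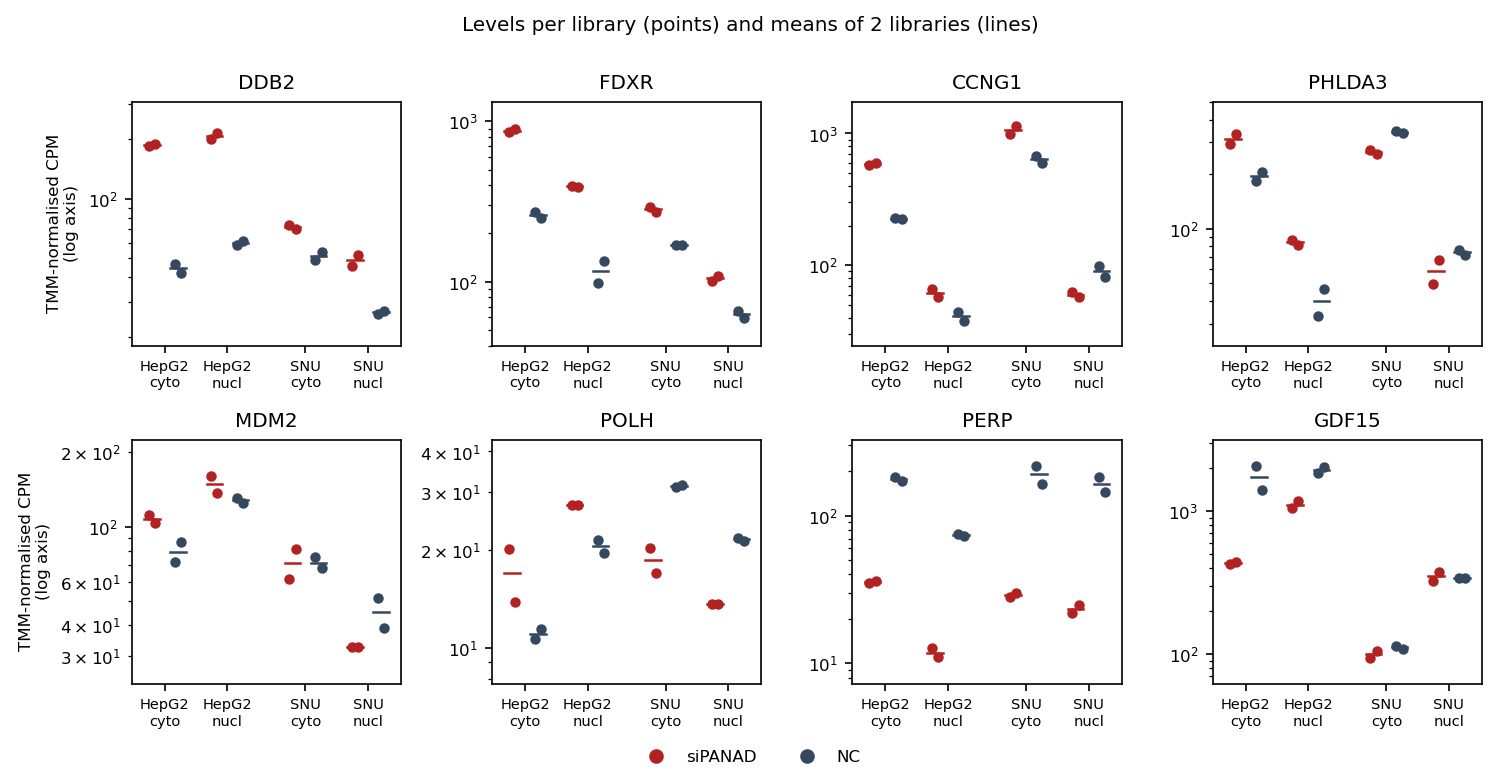
TMM-normalised CPM (log axis) of 8 p53 targets in each of the 16 libraries, by line and fraction, with siPANAD left of NC and a line at the mean of the 2 libraries. DDB2 and FDXR lie higher with siPANAD in all 4 pairs and PERP lower in all 4, CCNG1 changes sides in the SNU-449 nucleus, and PHLDA3 and POLH are higher in HepG2 and lower in SNU-449.

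Of the 5 genes of cell-cycle and RNA control, only ZMAT3, an RNA-binding zinc-finger protein that acts in splicing and mRNA turnover, rose in all 4 comparisons. It had 61.9 and 65.3 CPM with siPANAD, against 25.9 and 31.5 CPM with NC in the HepG2 cytoplasm (log2 1.14 ± 0.13, adjusted p = 8.2e-08). The nuclear ZMAT3 level in that line was 28.3 and 26.9 CPM with siPANAD, against 13.1 and 13.2 CPM with NC (log2 1.07 ± 0.14, adjusted p = 6.2e-07). In SNU-449 it had 15.5 and 15.8 CPM with siPANAD, against 9.601 and 8.93 CPM with NC in the cytoplasm (log2 0.76 ± 0.16, adjusted p = 0.00014). The nuclear ZMAT3 level in that line was 8.06 and 9.14 CPM with siPANAD, against 5.84 and 6.89 CPM with NC (log2 0.43 ± 0.15, adjusted p = 0.0192). The last of these calls was lost without NC replicate 1 (adjusted p = 0.19) or siPANAD replicate 2 (adjusted p = 0.202) and with DESeq2 (adjusted p = 0.067). PLK3, a stress-responsive polo-like kinase, went the other way, with 20.9 and 19.4 CPM with siPANAD, against 35.7 and 34.3 CPM with NC in the HepG2 cytoplasm (log2 -0.80 ± 0.14, adjusted p = 4.2e-05). It had 23.3 and 21.2 CPM with siPANAD, against 30.9 and 32.9 CPM with NC in the SNU-449 cytoplasm (log2 -0.52 ± 0.12, adjusted p = 0.00053). In the nucleus it fell in HepG2 (log2 -0.44 ± 0.13, adjusted p = 0.00687), a call lost without NC replicate 2 (adjusted p = 0.101) or siPANAD replicate 1 (adjusted p = 0.109) and with scaling by library totals (adjusted p = 0.0788), and did not pass in SNU-449 (log2 -0.04, adjusted p = 0.762).

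The related kinase PLK2 was called only in the SNU-449 nucleus, with 424 and 478 CPM with siPANAD, against 319 and 348 CPM with NC (log2 0.44 ± 0.09, adjusted p = 0.00018). BTG2, an antiproliferative partner of the CCR4-NOT deadenylase, rose in the HepG2 nucleus, with 25.3 and 29.2 CPM with siPANAD, against 19.9 and 16.8 CPM with NC (log2 0.57 ± 0.14, adjusted p = 0.00147). GADD45A, which responds to DNA damage and restrains entry into mitosis, did not pass in any comparison. In the SNU-449 nucleus siPANAD replicate 2 stood above the other libraries for both of these genes, with BTG2 at 5.16 and 12.1 CPM with siPANAD, against 4.77 and 5.23 CPM with NC. GADD45A stood at 75.1 and 129.8 CPM with siPANAD, against 53.1 and 68.6 CPM with NC. Neither difference passed there (log2 0.78 ± 0.40, adjusted p = 0.171, and log2 0.75 ± 0.31, adjusted p = 0.117). BTG2 did not pass in the SNU-449 cytoplasm either, with 5.64 and 7.15 CPM with siPANAD, against 11.2 and 13.5 CPM with NC (log2 -0.94 ± 0.43, adjusted p = 0.142).

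In the group of metabolism and redox genes, FDXR rose in every comparison and GDF15 fell in HepG2 alone by the test. FDXR (ENSG00000161513, chr17:74862497-74873031, hg38), the mitochondrial ferredoxin reductase needed for iron-sulphur clusters and steroid synthesis, had 853 and 892 CPM with siPANAD, against 272 and 250.2 CPM with NC in the HepG2 cytoplasm. The nuclear FDXR level in that line was 397 and 388 CPM with siPANAD, against 97.8 and 135 CPM with NC. It rose 3.34-fold in the cytoplasm (log2 1.74 ± 0.15, adjusted p = 3.8e-10) and 3.38-fold in the nucleus (log2 1.76 ± 0.15, adjusted p = 4.6e-10). In SNU-449 it had 291 and 274 CPM with siPANAD, against 170.4 and 171 CPM with NC in the cytoplasm, a 1.66-fold rise (adjusted p = 3.3e-08). The nuclear FDXR level in that line was 101 and 109 CPM with siPANAD, against 65.8 and 59.4 CPM with NC, a 1.68-fold rise (adjusted p = 3.5e-08). The nuclear minus cytoplasmic difference of these changes was 0.02 ± 0.20 in HepG2 and 0.02 ± 0.13 in SNU-449.

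GDF15 (ENSG00000130513, chr19:18374731-18389176, hg38), a secreted stress cytokine that suppresses appetite, had the strongest fall after PERP in both HepG2 fractions. In the HepG2 cytoplasm it had 427 and 437 CPM with siPANAD, against 2084 and 1400 CPM with NC, a 4.03-fold lower level (log2 -2.01 ± 0.17, adjusted p = 2.7e-10). In the HepG2 nucleus it had 1045 and 1175 CPM with siPANAD, against 1838 and 2046 CPM with NC, a 1.75-fold lower level (log2 -0.81 ± 0.16, adjusted p = 0.0002). The SNU-449 groups lay close together or overlapped, with 93.9 and 105 CPM with siPANAD, against 114 and 108 CPM with NC in the cytoplasm (log2 -0.16 ± 0.10, adjusted p = 0.2). In the nucleus it had 324 and 377 CPM with siPANAD, against 342 and 342 CPM with NC (log2 0.04 ± 0.09, adjusted p = 0.774).

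The quinone oxidoreductase gene TP53I3 (PIG3) rose in HepG2, with 138 and 133 CPM with siPANAD, against 58.1 and 63.7 CPM with NC in the cytoplasm (log2 1.15 ± 0.14, adjusted p = 1.9e-07). In the nucleus it had 130.1 and 131 CPM with siPANAD, against 46.3 and 63.7 CPM with NC (log2 1.25 ± 0.14, adjusted p = 6e-08). In SNU-449 it rose slightly in the nucleus (log2 0.32 ± 0.09, adjusted p = 0.00571) and did not pass in the cytoplasm (log2 -0.14 ± 0.10, adjusted p = 0.253). The sestrins SESN1 and SESN2 are stress-induced inhibitors of mTORC1, and only the first rose in HepG2. SESN1 had 33.6 and 33.6 CPM with siPANAD, against 16.5 and 20.8 CPM with NC in the HepG2 cytoplasm (log2 0.84 ± 0.15, adjusted p = 3.2e-05). The nuclear SESN1 level in that line was 25.5 and 21.6 CPM with siPANAD, against 12.2 and 13.2 CPM with NC (log2 0.89 ± 0.15, adjusted p = 2e-05). In the SNU-449 cytoplasm SESN1 fell, with 1.24 and 1.14 CPM with siPANAD, against 2.42 and 2.41 CPM with NC (log2 -1.02 ± 0.34, adjusted p = 0.015), but from 16 to 85 counts per SNU-449 library. The call was lost without siPANAD replicate 2, NC replicate 1 or NC replicate 2 (adjusted p between 0.0513 and 0.081) and with DESeq2 (adjusted p = 0.0678). SESN2 was called only in the SNU-449 nucleus (log2 -0.42 ± 0.12, adjusted p = 0.00566), a call lost without siPANAD replicate 2 (adjusted p = 0.149).

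TIGAR, a fructose bisphosphatase that slows glycolysis, had few counts (32 to 104 per library). It rose in the HepG2 cytoplasm, with 4.395 and 3.996 CPM with siPANAD, against 2.31 and 2.18 CPM with NC (log2 0.91 ± 0.24, adjusted p = 0.00334). In the HepG2 nucleus it had 4.05 and 4.66 CPM with siPANAD, against 2.802 and 2.58 CPM with NC (log2 0.69 ± 0.22, adjusted p = 0.0113). In the SNU-449 nucleus it fell, with 1.83 and 1.905 CPM with siPANAD, against 2.88 and 2.89 CPM with NC (log2 -0.62 ± 0.23, adjusted p = 0.0228). Libraries of the 2 groups did not overlap in these comparisons, yet the calls were fragile. The HepG2 calls were lost without siPANAD replicate 1 in the cytoplasm (adjusted p = 0.0501) and without NC replicate 2 (adjusted p = 0.076) or siPANAD replicate 2 (adjusted p = 0.124) in the nucleus. The SNU-449 call was lost without any 1 of the 4 nuclear libraries (adjusted p between 0.0632 and 0.107). DESeq2 did not give the nuclear calls of TIGAR either (adjusted p = 0.0738 in HepG2 and 0.162 in SNU-449). A same-strand neighbour, AC008012.1, covers 42.6% of the exonic bases of TIGAR, so its counts may be shared with that gene.

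Of the 10 genes of cell death, autophagy or organelle quality control, 6 rose and 1 fell in each HepG2 fraction, where 23.7% of all genes rose and 24.2% fell in the cytoplasm and 22.0% and 23.6% in the nucleus. TP53INP1, a promoter of autophagy and of p53 phosphorylation, had 35.3 and 35.1 CPM with siPANAD, against 13.7 and 17.9 CPM with NC in the HepG2 cytoplasm (log2 1.14 ± 0.14, adjusted p = 3e-07). The nuclear TP53INP1 level in that line was 60.6 and 57.1 CPM with siPANAD, against 20.7 and 21.2 CPM with NC (log2 1.49 ± 0.14, adjusted p = 1.9e-09). In SNU-449 it had 5.49 and 6.58 CPM with siPANAD, against 2.199 and 3.05 CPM with NC in the cytoplasm (log2 1.2 ± 0.22, adjusted p = 3.3e-05). The nuclear TP53INP1 level in that line was 11.3 and 11.98 CPM with siPANAD, against 5.29 and 5.53 CPM with NC (log2 1.11 ± 0.16, adjusted p = 4.6e-07). Each of its 8 siPANAD libraries lay above both NC libraries of the same line and fraction. PIDD1, the scaffold that activates caspase-2, had 60.02 and 55.4 CPM with siPANAD, against 32.4 and 27.1 CPM with NC in the HepG2 cytoplasm (log2 0.96 ± 0.15, adjusted p = 6.6e-06). The nuclear PIDD1 level in that line was 329 and 381 CPM with siPANAD, against 126 and 162 CPM with NC (log2 1.3 ± 0.14, adjusted p = 3.6e-08). In SNU-449 PIDD1 rose less (log2 0.37 ± 0.11 in the cytoplasm and 0.72 ± 0.10 in the nucleus, adjusted p = 0.00743 and 6.3e-07). The cytoplasmic call was lost without NC replicate 1 (adjusted p = 0.0611) or siPANAD replicate 1 (adjusted p = 0.0888). CYFIP2, a subunit of the WAVE actin regulator that p53 induces in apoptosis, had 152 and 151 CPM with siPANAD, against 69.9 and 62.7 CPM with NC in the HepG2 cytoplasm (log2 1.2 ± 0.13, adjusted p = 1.7e-08). Its log2 values were 1.09 in the HepG2 nucleus, 0.57 in the SNU-449 cytoplasm and 0.36 in the SNU-449 nucleus.

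Another pair could be tested in HepG2 alone. SPATA18 (MIEAP), which acts in mitochondrial quality control, had 27.97 and 23.98 CPM with siPANAD, against 10.8 and 11.7 CPM with NC in the HepG2 cytoplasm (log2 1.2 ± 0.15, adjusted p = 3.2e-07). The nuclear SPATA18 level in that line was 25.98 and 25.03 CPM with siPANAD, against 9.93 and 8.31 CPM with NC (log2 1.49 ± 0.15, adjusted p = 9.8e-09). EDA2R, a TNF-family receptor for ectodysplasin A2, had 23.1 and 21.5 CPM with siPANAD, against 12.8 and 10.3 CPM with NC in the cytoplasm (log2 0.97 ± 0.15, adjusted p = 7.7e-06). The nuclear EDA2R level in that line was 29.6 and 32.9 CPM with siPANAD, against 15.5 and 15.8 CPM with NC (log2 1.0 ± 0.14, adjusted p = 2.2e-06). PHLDA3, a pleckstrin-domain inhibitor of AKT, rose in HepG2 and fell in SNU-449. It had 295 and 335 CPM with siPANAD, against 184 and 206 CPM with NC in the HepG2 cytoplasm (log2 0.69 ± 0.14, adjusted p = 0.00024). The nuclear PHLDA3 level in that line was 87.1 and 81.4 CPM with siPANAD, against 33.1 and 46.5 CPM with NC (log2 1.08 ± 0.15, adjusted p = 1.5e-06). In SNU-449 the levels were 272 and 258 CPM with siPANAD, against 345 and 339 CPM with NC in the cytoplasm (log2 -0.37 ± 0.10, adjusted p = 0.00485). The nuclear PHLDA3 level in that line was 49.5 and 67.6 CPM with siPANAD, against 76.9 and 71.9 CPM with NC (log2 -0.34 ± 0.11, adjusted p = 0.00954). The SNU-449 calls depended on single libraries, since the cytoplasmic one was lost without siPANAD replicate 2 (adjusted p = 0.0606) and the nuclear one without siPANAD replicate 1 (log2 -0.15, adjusted p = 0.354) or NC replicate 1 (adjusted p = 0.0518). The nuclear value was log2 -0.59 without siPANAD replicate 2. A same-strand neighbour covers 19.1% of the exonic bases of PHLDA3.

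PERP (ENSG00000112378, chr6:138088505-138107511, hg38), a membrane protein of desmosomes that also takes part in p53-dependent apoptosis, was the one gene that fell everywhere and had the largest change of the 30 in each comparison. In HepG2 it had 35.2 and 35.97 CPM with siPANAD, against 182 and 173 CPM with NC in the cytoplasm. The nuclear PERP level in that line was 12.6 and 10.9 CPM with siPANAD, against 74.7 and 72.6 CPM with NC. In SNU-449 it had 28.2 and 29.95 CPM with siPANAD, against 217 and 164 CPM with NC in the cytoplasm. The nuclear PERP level in that line was 21.8 and 24.7 CPM with siPANAD, against 183 and 144 CPM with NC. These were 4.98-fold (log2 -2.32 ± 0.13, adjusted p = 2.7e-13) and 6.24-fold (log2 -2.64 ± 0.13, adjusted p = 7.5e-14) lower levels in HepG2. They were 6.53-fold (log2 -2.71 ± 0.14, adjusted p = 1.6e-12) and 7.03-fold (log2 -2.81 ± 0.14, adjusted p = 1.2e-12) lower levels in SNU-449. The nuclease gene AEN and the lysosomal autophagy regulator DRAM1 passed in none of the 4 comparisons, with log2 values of -0.07 to 0.31 for AEN and -0.34 to 0.20 for DRAM1, although the AEN window printed above holds a full site. TRIAP1, a small inhibitor of apoptosis, was called in the SNU-449 cytoplasm alone, with 16.2 and 16.5 CPM with siPANAD, against 26.02 and 26.3 CPM with NC (log2 -0.68 ± 0.15, adjusted p = 0.00067).

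The last pair of targets has other roles. TRIM22, an interferon-inducible antiviral ubiquitin ligase, had 6.63 and 7.13 CPM with siPANAD, against 1.88 and 1.62 CPM with NC in the HepG2 cytoplasm, a 3.99-fold rise (log2 2.0 ± 0.22, adjusted p = 3e-08). The nuclear TRIM22 level in that line was 30.4 and 27.8 CPM with siPANAD, against 6.44 and 6.11 CPM with NC, a 4.64-fold rise (log2 2.21 ± 0.16, adjusted p = 2.6e-11). Another gene, OR56B1, covers 10.7% of the exonic bases of TRIM22 on the same strand. SUSD6, a sushi-domain membrane protein, had 35.2 and 32.8 CPM with siPANAD, against 19.4 and 19.6 CPM with NC in the HepG2 cytoplasm (log2 0.80 ± 0.14, adjusted p = 2.8e-05). The nuclear SUSD6 level in that line was 74.5 and 78.7 CPM with siPANAD, against 29.9 and 36.1 CPM with NC (log2 1.22 ± 0.13, adjusted p = 2.6e-08). In SNU-449 its groups did not differ by the test (log2 -0.23 ± 0.21 in the cytoplasm and -0.03 ± 0.13 in the nucleus).

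Whether siPANAD acted differently in the 2 lines was tested directly in a joint fit of the 16 libraries. The response of HepG2 was subtracted from that of SNU-449. Each response was measured within its line, but a difference between the lines cannot be told apart from one in their sequencing. In the cytoplasm 1 of the 30 genes had a more positive effect in SNU-449 and 11 a more negative one, against 9.17% and 8.98% of all 20459 genes. In the nucleus 2 were more positive and 15 more negative, against 11.3% and 9.61%. All 12 genes that differed in the cytoplasm also differed in the nucleus, with the same sign. The share of all genes with such shared differences is not given here. Over the 27 genes tested in both lines the median difference was -0.63 in the cytoplasm and -0.65 in the nucleus, beside 0.00 and 0.01 for all genes. The more positive ones were GDF15 in both fractions (differences of 1.81 ± 0.19 and 0.83 ± 0.19, adjusted p = 1.3e-09 and 0.00099), which fell in HepG2 and did not pass in SNU-449, and PLK2 in the nucleus (0.50 ± 0.17, adjusted p = 0.0329). The PLK2 call was lost with scaling by library totals (adjusted p = 0.0808) and without the filter on low counts (adjusted p = 0.0692). In the cytoplasm the differences that were furthest below 0 among the 27 were those of SESN1 (-1.89 ± 0.36, adjusted p = 8.2e-05), DDB2 (-1.64 ± 0.17, adjusted p = 1.5e-10) and POLH (-1.42 ± 0.21, adjusted p = 1.3e-06). In the nucleus they were those of PHLDA3 (-1.44 ± 0.19, adjusted p = 3.2e-07), SESN1 (-1.33 ± 0.27, adjusted p = 0.00024) and TIGAR (-1.33 ± 0.32, adjusted p = 0.0014).

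Of the 6 genes that rose everywhere, DDB2, FDXR, CYFIP2 and PIDD1 rose less in SNU-449 than in HepG2 in both fractions by this test. ZMAT3 did so in the nucleus (-0.65 ± 0.20, adjusted p = 0.0161), and for TP53INP1 the lines were not told apart (differences of 0.02 ± 0.25 in the cytoplasm and -0.40 ± 0.20 in the nucleus, adjusted p = 1.0 and 0.175). PERP likewise gave differences of -0.43 ± 0.18 and -0.19 ± 0.19 that did not pass (adjusted p = 0.104 and 0.548). The nuclear calls of PLK2, ZMAT3, PIDD1 and MDM2 and the cytoplasmic calls of PIDD1 and SUSD6 were each lost without at least 1 single library, and without SNU-449 cytoplasm NC replicate 2 the SUSD6 difference was -0.74 (adjusted p = 0.0737).

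**Figure D3:**
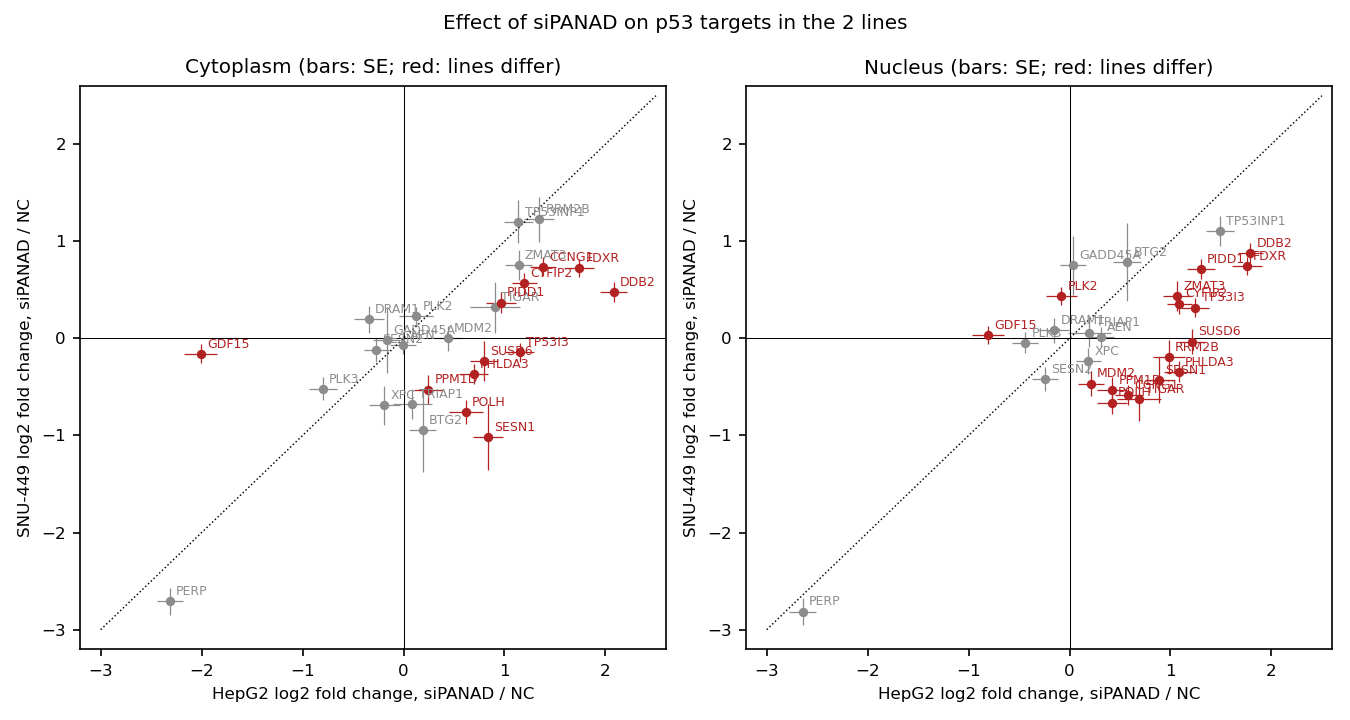
Log2 fold changes of siPANAD over NC in SNU-449 (vertical) against HepG2 (horizontal) for the 27 p53 targets tested in both lines, in the cytoplasm (left) and the nucleus (right), with bars of 1 SE and a dotted line of equal change. Genes in red (12 in the cytoplasm and 17 in the nucleus) differed between the lines by the joint test, and 11 and 15 of these lie below the dotted line.

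The lines also differed in the levels the p53 targets had with NC. Line and sequencing cannot be told apart in these levels, since each line had its own count table. In the cytoplasm 6 of the 30 genes were higher and 18 lower in SNU-449 than in HepG2, against 34.3% and 36.9% of all genes. In the nucleus 4 were higher and 20 lower, against 39.1% and 36.5%. With the genes at 0 set to the bound that their depth allows, the median of the 30 was -0.90 in the cytoplasm and -0.96 in the nucleus, beside -0.08 and 0.05 for all genes. GDF15 stood at 112 and 110.2 CPM in SNU-449 and 2111 and 1424 CPM in HepG2 in the cytoplasm with NC, scaled in the joint fit (15.9-fold lower, log2 -3.99 ± 0.15, adjusted p = 1.6e-27). PLK2 was the opposite case, at 129.7 and 121 CPM in SNU-449 and 9.52 and 10.6 CPM in HepG2 (12.3-fold higher, log2 3.62 ± 0.14, adjusted p = 2e-28). CCNG1 and PHLDA3 were also higher in SNU-449 in both fractions (log2 1.47 and 0.79 in the cytoplasm), while TP53INP1, SESN1 and SESN2 were lower in both (log2 -2.62, -2.98 and -2.27 in the cytoplasm). With the 0 counts of SNU-449 set to 3 counts per library, on the scale of the joint fit, SPATA18 was at least 52.8-fold lower in SNU-449 in the cytoplasm and at least 69.8-fold lower in the nucleus. EDA2R was at least 54.0-fold lower in the cytoplasm and TRIM22 at least 8.19-fold lower in the cytoplasm. DDB2 did not differ between the lines in the cytoplasm by the test (log2 0.20 ± 0.12, adjusted p = 0.134) and was lower in SNU-449 in the nucleus (log2 -1.17 ± 0.12, adjusted p = 2.5e-12).

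How the transcripts were divided between nucleus and cytoplasm with NC varied widely among the 30 genes. In HepG2, 11 were higher in the nucleus and 15 lower, against 39.4% and 37.7% of all genes. In SNU-449, 7 of 27 were higher and 13 lower, against 43.5% and 36.2%. TMM scaling sets most genes of the 2 fractions to the same level, so these ratios are relative to the other genes of a library. The median log2 ratio of all genes was 0.04 in HepG2 and 0.22 in SNU-449. With scaling by library totals these medians were 0.66 and 1.06. Among the p53 targets called with at least 1 of these scalings, 5 HepG2 and 9 SNU-449 ratios changed sign. Sign changes of ratios called with neither were not counted. CCNG1 leaned furthest to the cytoplasm in both lines, with 44.6 and 37.9 CPM in the nucleus and 228 and 226 CPM in the cytoplasm of HepG2 (log2 -2.46 ± 0.14). In SNU-449 it had 98.2 and 82.2 CPM in the nucleus and 679.6 and 592 CPM in the cytoplasm (log2 -2.82 ± 0.11). The next was PHLDA3 (log2 -2.29 in HepG2 and -2.2 in SNU-449). PIDD1 in HepG2 (log2 2.29 ± 0.15) and SUSD6 in SNU-449 (log2 2.05 ± 0.16) leaned furthest to the nucleus.

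The series concerns mRNA export, so the change of this ratio with siPANAD was tested as the nuclear effect minus the cytoplasmic effect. In HepG2, 1 of the 30 genes had a higher ratio and 1 a lower one, against 4.91% and 4.98% of all genes. The higher one was GDF15, whose cytoplasmic level fell more than its nuclear level (shift of 1.2 ± 0.23, adjusted p = 0.00114). The lower one was CCNG1 (shift of -0.80 ± 0.19, adjusted p = 0.00654), a call lost without HepG2 nucleus siPANAD replicate 2 (adjusted p = 0.0724). With scaling by library totals 9 of the 30 were higher, and so were 2665 of all 17499 genes, against 859 of all genes with TMM. In SNU-449, 3 of 27 had a higher ratio and 3 a lower one, against 9.69% and 10.5% of all genes. CCNG1 shifted there too (-1.32 ± 0.14, adjusted p = 3e-08), so the nuclear to cytoplasmic ratio of its transcripts was lower with siPANAD in both lines. RRM2B shifted in the same direction in SNU-449 (-1.42 ± 0.29, adjusted p = 0.00038), while TP53I3 (0.46 ± 0.13, adjusted p = 0.0123) and TRIAP1 (0.74 ± 0.21, adjusted p = 0.0132) shifted towards the nucleus. The shifts of TIGAR (-0.94 ± 0.35, adjusted p = 0.0485) and PLK3 (0.47 ± 0.16, adjusted p = 0.0312) lay close to the threshold. They were lost without most single libraries (adjusted p up to 0.252 for TIGAR and 0.131 for PLK3) and with DESeq2 (adjusted p = 0.232 and 0.0619). The shift of TRIAP1 was lost without siPANAD nucleus replicate 2 (0.38, adjusted p = 0.299) or NC cytoplasm replicate 2 (adjusted p = 0.0609). That of TP53I3 was lost without siPANAD cytoplasm replicate 1 (adjusted p = 0.114).

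**Figure D4:**
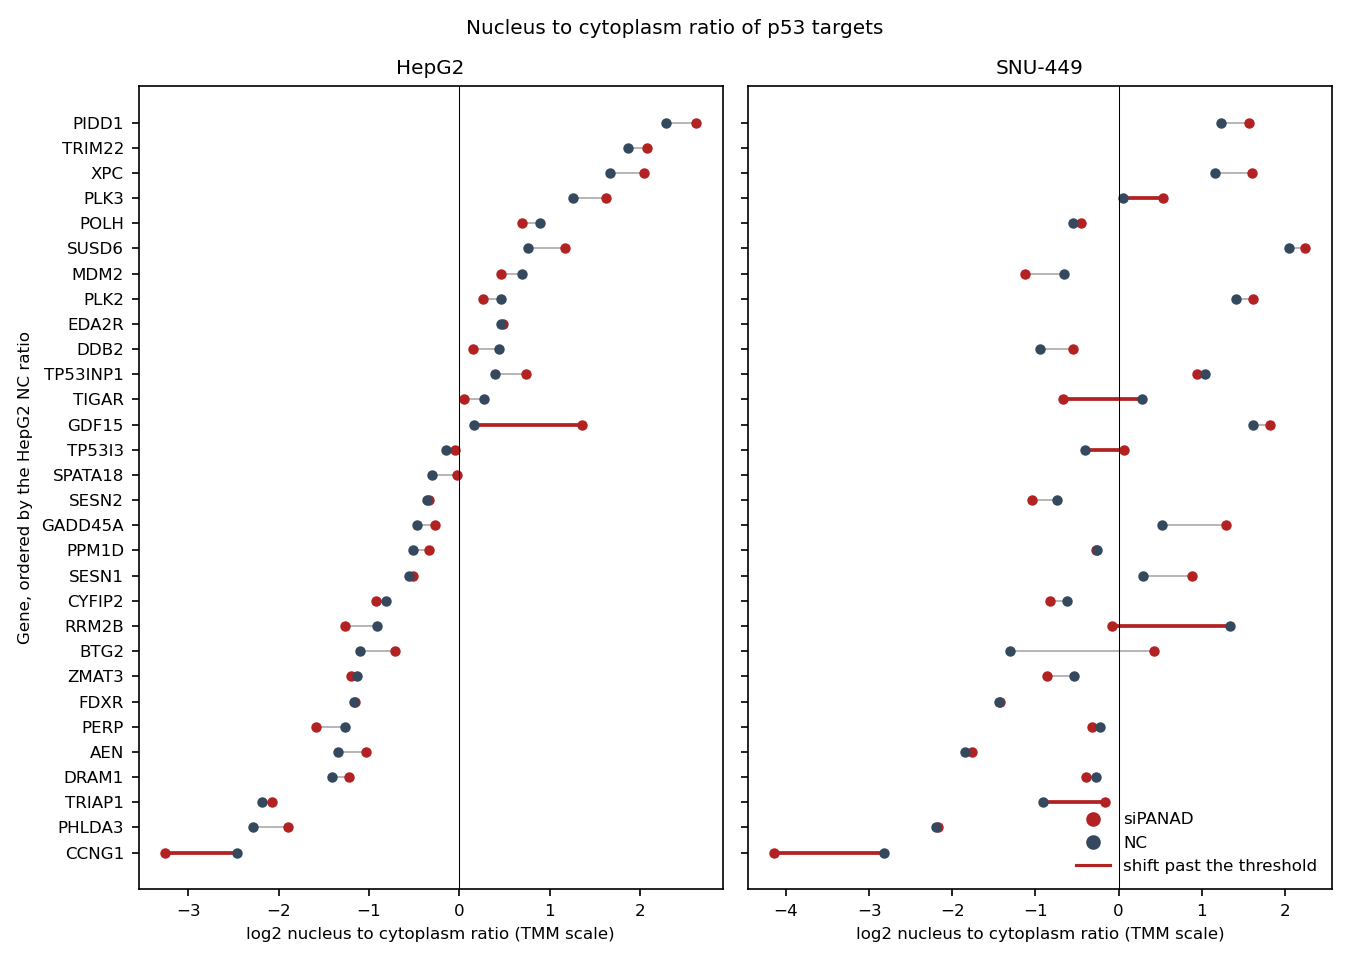
Log2 ratio of nuclear to cytoplasmic level of the p53 targets with siPANAD (red points) and NC (dark points) in HepG2 (left) and SNU-449 (right), in the order of the HepG2 NC ratio; thick red lines mark shifts past the threshold. GDF15 moves right and CCNG1 left in HepG2, and 6 genes are marked in SNU-449, of which CCNG1, RRM2B and TIGAR move left.

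The 23 relatives and regulators of p53 gave mixed results, with 3 higher and 9 lower of 22 tested in the HepG2 cytoplasm (23.7% and 24.2% of all genes) and 1 and 6 in the HepG2 nucleus (22.0% and 23.6%). In SNU-449, 7 of 21 were higher and 4 lower in the cytoplasm (19.6% and 20.1% of all genes), and 3 higher and 10 lower in the nucleus (22.1% and 23.9%). HIPK2, a kinase that phosphorylates p53 for its apoptotic programme, fell in all 4, with 25.9 ± 2.101 CPM with siPANAD and 75.8 ± 4.54 CPM with NC in the HepG2 cytoplasm (SD, n = 2 each; log2 -1.55, edgeR adjusted p = 4.2e-10). Its log2 values were -0.83, -1.41 and -0.95 in the HepG2 nucleus, SNU-449 cytoplasm and SNU-449 nucleus. USP7, the deubiquitinase of MDM2 and p53, fell in 3 of the 4 (log2 -0.83, -0.45 and -0.38, with -0.26 and adjusted p = 0.081 in the SNU-449 cytoplasm). TP53BP1, a DNA double-strand break mediator that binds p53, rose in all 4 by log2 values of 0.50 to 0.59.

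A further list of 42 known p53 targets, CDKN1A (p21) among them, held nearly as many lower as higher genes. In HepG2, 15 rose and 12 fell in the cytoplasm (23.7% and 24.2% of all genes) and 14 rose and 11 fell in the nucleus (22.0% and 23.6%), with medians of 0.02 and 0.14. In SNU-449, 15 of 41 rose and 12 fell in the cytoplasm (19.6% and 20.1% of all genes) and 14 rose and 10 fell in the nucleus (22.1% and 23.9%), with medians of -0.05 and 0.04. RPS27L, a ribosomal-protein-like regulator of MDM2, rose in all 4 (log2 1.83, 0.95, 0.66 and 0.62, in the order HepG2 cytoplasm, HepG2 nucleus, SNU-449 cytoplasm and SNU-449 nucleus). So did BBC3 (PUMA), a BH3-only killer protein (log2 0.95, 1.41, 0.44 and 0.43), and DCP1B, a decapping cofactor (log2 1.26, 0.74, 0.75 and 0.69). STEAP3, a ferrireductase of the endosome, fell in all 4 (log2 -1.05, -0.44, -1.5 and -0.56).

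The 16 mitotic and cell-cycle genes that p53 represses through p21 and the DREAM complex were lower or not called. Of these, 8 fell in the cytoplasm of each line, 10 in the HepG2 nucleus and 14 in the SNU-449 nucleus, and none rose. Of all genes, 24.2% fell in the HepG2 cytoplasm, 23.6% in the HepG2 nucleus, 20.1% in the SNU-449 cytoplasm and 23.9% in the SNU-449 nucleus, and 19.6% to 23.7% rose. Their median log2 fold changes were -0.37, -0.38, -0.24 and -0.48 in the HepG2 cytoplasm, HepG2 nucleus, SNU-449 cytoplasm and SNU-449 nucleus. MYBL2, the transcription factor B-MYB, had 668 ± 19.3 CPM with siPANAD and 2528 ± 189 CPM with NC in the SNU-449 cytoplasm (log2 -1.92, edgeR adjusted p = 1.4e-18). It had 348 ± 35.5 CPM with siPANAD and 1026 ± 70.3 CPM with NC in the HepG2 cytoplasm (log2 -1.56, edgeR adjusted p = 7.6e-10). The kinetochore protein gene CENPF fell most in the nuclei (log2 -1.54 for HepG2 and -1.33 for SNU-449). The mitotic kinase PLK1 and cyclin B2 (CCNB2) fell in all 4 comparisons by smaller amounts.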

How the data were processed

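RNA of the cytoplasmic and nuclear fractions was sequenced from 16 libraries (2 lines, 2 fractions, siPANAD or NC, 2 replicates). The deposited values were whole-number read counts per Ensembl gene, 1 table per line, used without rounding. Per the submitters' processing notes, Trim Galore 0.6.4 and HISAT2 2.2.1 were used with hg38; the libraries were directional per the labels, and the counter, annotation and strand setting are not given in the sources used here. Symbols and positions came from GENCODE, matching 61444 of 67938 identifiers; unmatched rows held 0.03064% (HepG2) and 0.04136% (SNU-449) of counts, and ANK2, broken over several lines, was left out. Each line was fitted with edgeR 4.0.16 (R 4.3.3) as 1 mean per group after filterByExpr (minimum count 10) and TMM scaling, with glmQLFit (robust), glmQLFTest and Benjamini-Hochberg adjustment over all 17499 (HepG2) or 17895 (SNU-449) genes; differences between lines used 1 fit of all 16 libraries (20459 genes). Alternatives were other scalings, no filter, DESeq2 1.42.0, the compared libraries alone, a replicate block and leaving out each library. The text names all 30 targets and C7orf25 (1 further gene is not reported here), of other lists at most 4 genes each, those called in the most of the 4 knockdown comparisons, and CDKN1A and defining markers of cell types (ALB, APOB, VIM, PTPRC, CD3E) as orientation. The 30 targets and the lists were chosen with earlier results of these data known. Within groups, libraries varied beyond counting error (chi-square per degree of freedom 4.09 to 29.9). Floors of 3 counts cover counting error only. All tests are two-sided.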

Additional observations from a re-analysis of the deposited data

Results flagged for a closer look

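The effect of siPANAD differed between the lines by a direct test (SNU-449 effect minus HepG2 effect, log2, edgeR adjusted p under 0.05) for 12 p53 targets in the cytoplasm and 17 in the nucleus. In the cytoplasm the difference was -1.89 for SESN1, -1.64 for DDB2, -1.42 for POLH, -1.33 for TP53I3, -1.10 for PHLDA3, -1.07 for SUSD6, -1.05 for FDXR, -0.81 for PPM1D, -0.68 for CCNG1, -0.67 for CYFIP2 and -0.64 for PIDD1, and 1.81 for GDF15. These values mean a less positive or more negative response in SNU-449 for all named except GDF15.

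In the nucleus the difference was -1.44 for PHLDA3, -1.33 for SESN1, -1.33 for TIGAR, -1.26 for SUSD6, -1.19 for RRM2B, -1.18 for CCNG1, -1.10 for POLH, -1.03 for FDXR, -0.97 for PPM1D and -0.94 for TP53I3. It was -0.93 for DDB2, -0.75 for CYFIP2, -0.70 for MDM2, -0.65 for ZMAT3 and -0.60 for PIDD1, and positive for PLK2 (0.50) and GDF15 (0.83). All 12 genes of the cytoplasm differed in the nucleus as well, with the same sign, and the share of all genes that did so is not given here.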

How the results depend on the processing

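Of 5715 values recomputed under another setting, 5479 kept their side of the threshold, 115 became weaker, 107 stronger and 14 reversed. A reversal was counted only where the sign changed and the gene was called in at least 1 of the compared settings. Sign changes of genes called in neither setting are among the 5479. All 14 reversals came from scaling by library totals and concern the NC nucleus to cytoplasm ratio. In HepG2 that log2 ratio was 0.261 for SESN2, 0.147 for GADD45A, 0.471 for TP53I3, 0.058 for SESN1 and 0.109 for PPM1D, and in SNU-449 0.106 for SESN2, 0.45 for TP53I3, 0.311 for ZMAT3, 0.233 for CYFIP2, 0.305 for POLH, 0.627 for PERP, 0.186 for MDM2, 0.575 for DRAM1 and 0.59 for PPM1D. The same scaling called 5 targets lower in the HepG2 cytoplasm, 9 lower in the HepG2 nucleus to cytoplasm ratio, 9 higher in its shift with siPANAD, 17 higher and 4 lower in the SNU-449 ratio, and 2 (cytoplasm) and 1 (nucleus) with a more positive effect in SNU-449 than in HepG2. Without the filter on low counts, 5 were lower in the HepG2 cytoplasm and 2 had a more positive cytoplasmic effect in SNU-449. Over all genes, library totals gave 3491 higher and 5038 lower genes in the HepG2 cytoplasm (4149 and 4241 with TMM; median -0.118), 5089 and 2809 in the HepG2 nucleus (3843 and 4138; median 0.135), 2665 and 392 for the HepG2 shift (859 and 871), 9505 and 4036 for the HepG2 ratio (6892 and 6600), 11362 and 3463 for the SNU-449 ratio (7789 and 6483), and 2966 and 1217 (cytoplasm; 1876 and 1838) and 1827 and 2415 (nucleus; 2312 and 1967) for the difference between lines. Without the filter, the HepG2 shift had 1288 and 601 and the cytoplasmic line difference 2133 and 1446. The cause was not tested.

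Leaving out 1 library at a time, 15 to 19 targets were higher and 3 to 4 lower in the HepG2 cytoplasm, and 16 to 20 and 2 to 3 in the HepG2 nucleus. In SNU-449, 7 to 9 were higher and 4 to 9 lower in the cytoplasm (4 without siPANAD replicate 2), and 7 to 10 and 5 to 8 in the nucleus (5 without siPANAD replicate 1). For the ratio, 10 to 11 and 14 to 16 were called in HepG2 and 7 to 9 and 12 to 15 in SNU-449, and for its shift 1 to 2 and 0 to 1 in HepG2 and 1 to 6 and 2 to 4 in SNU-449. The line difference had 1 to 2 more positive and 10 to 13 more negative targets in the cytoplasm and 1 to 4 and 14 to 15 in the nucleus, and NC levels 6 and 18 in the cytoplasm and 4 to 5 and 17 to 20 in the nucleus. With 1 library left in a group, that library is assumed to vary like the others. Shares of all genes in these refits are not given here, so the ranges only describe the targets.

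Deviations of same-numbered libraries of a line correlated between -0.221 and 0.113. These values include counting error and cannot exclude that libraries, such as the fractions of a culture, were paired. The tests treated all libraries as unpaired, and the replicate block was 1 term per line. With a replicate block, 340 of 348 values kept their side of the threshold, 7 became stronger and 1 weaker, the SNU-449 shift of TIGAR (-0.941, adjusted p = 0.0561). With 2 libraries per group and 0 to 7 counts of C7orf25, neither small effects nor the depletion of the targeted gene could be resolved.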
